A study of Mus musculus with 9 samples.

Results

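Tuft cell genes are represented here by 10 genes: Pou2f3, Spib, Gng13, Rgs13, Alox5ap, Ltc4s, Hpgds, Avil, Dclk1 and Sh2d6. Members were found as the probe sets that carry exactly 1 of these symbols, which gave 19 of the 45101 probe sets on the array and 10 of the 18194 genes named on it. Dclk1 had 9 probe sets, Gng13 had 2 and each of the others had 1. The probe set shown for each gene is the one with the highest mean. The 10 symbols were chosen with their levels in the stomach zones already known. Those levels and the differences between zones are therefore given as descriptions, without a test.

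The study took tissue from the stomach of healthy, untreated female C57Bl/6 mice that were 3 months old. The corpus is the glandular, acid-secreting zone, the forestomach is lined by squamous epithelium, and the squamocolumnar junction lies between both at the limiting ridge. Stripes of these zones, each 600 to 800 µm wide, were cut next to one another from the stomachs of 9 mice. Tissue of 3 animals was pooled for each array before RNA isolation, and there were 3 such series of pools. The 3 zones of a series thus come from the same mice. The labels name no sorting of cells, so an array reads a pool of whole tissue stripes. All values are signals on the linear scale of the deposited data, with 1 value per probe set and array.

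Tuft cells, also called brush cells, are rare chemosensory cells of hollow-organ epithelia with a tuft of stiff microvilli. They sense luminal compounds and parasites through a taste-type cascade of receptors, G proteins and the cation channel TRPM5, and they release cytokines, leukotrienes, prostaglandins and acetylcholine. The POU-domain factor Pou2f3 is required for their formation. In the mouse stomach they are known to be dense at the limiting ridge, on the glandular side of the boundary with the squamous epithelium.

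Promoter windows of 250 bases before an annotated transcript start were available for 8 of the members, 10 windows in all, from RefSeq on build GRCm38.p6. They were searched on both strands for the octamer ATGCAAAT, which POU-domain factors bind, and for GAGGAAGT, an ETS-type motif of the kind that Spi-B binds. These motifs share no overlap with each other in any window described. Of 32851 windows of this length, 526 (1.6%) held the octamer, 802 (2.44%) held the ETS-type motif and 15 (0.0457%) held both. Among the members only the window of Hpgds held a match, and it held both. The octamer began 174 bases and the ETS-type motif 49 bases before the start, on the strand of the gene. The stretches of 30 bases around the matches are shown with the motif in capitals, from chr6:65144886-65144915 and chr6:65144761-65144790 on the minus strand. That window lies inside the annotated span of the gene, which reaches farther upstream. For comparison, the windows of Rgs13 (chr1:144177373-144177622, minus strand) and Ltc4s (chr11:50238533-50238782, minus strand) are shown, which lie outside their genes and hold neither motif. Both genes were high at the junction, as described further on.
Hpgds octamer: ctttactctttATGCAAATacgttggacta
Hpgds ETS-type motif: gcttttaggtgGAGGAAGTggcctctggct
Rgs13: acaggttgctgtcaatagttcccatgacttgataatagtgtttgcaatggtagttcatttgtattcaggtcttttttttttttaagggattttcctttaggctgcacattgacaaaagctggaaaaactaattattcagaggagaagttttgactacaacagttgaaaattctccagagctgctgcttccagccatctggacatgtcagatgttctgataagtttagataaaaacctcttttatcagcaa
Ltc4s: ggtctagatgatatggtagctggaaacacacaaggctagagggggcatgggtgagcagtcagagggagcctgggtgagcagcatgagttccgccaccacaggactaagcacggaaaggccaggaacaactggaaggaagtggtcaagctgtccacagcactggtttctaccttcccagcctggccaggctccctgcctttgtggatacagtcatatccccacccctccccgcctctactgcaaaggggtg

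Forestomach arrays 2 and 3 carried more glandular transcripts than forestomach array 1. Over 10 genes of the glandular epithelium, such as the proton pump subunit Atp4a and pepsinogen C (Pgc), the median signal was 0.336%, 3.43% and 5.22% of the corpus mean on forestomach arrays 1, 2 and 3. Genes differed in this. Pgc read 19.7, 78.8 and 277.5 there against a corpus mean of 12559.6, and Gkn1 260.4, 7130.0 and 10404.0 against 18209.1. The junction carried these genes too, and the zone they came from was not tested. The medians of all signals lay between 47.9 and 57.1, and precision is limited by there being 9 arrays. A signal under the 40th percentile of its array, between 29.0 and 36.5, is called below the filter level. All 10 members passed the filter, which asked for a signal above that level on at least 3 arrays. A member could pass through the zone in which it is high.

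Between zones, 9 of the 10 members had a higher mean in the junction than in the forestomach, and 9 had a higher mean in the junction than in the corpus. In 7 members, namely Spib, Rgs13, Alox5ap, Ltc4s, Hpgds, Dclk1 and Sh2d6, each of the 3 junction arrays lay above each of the 6 arrays of the other zones. Over all 13637 genes tested, 2.85% had this arrangement, but the members were chosen from these same comparisons and the count is no evidence about them. Junction arrays lay above corpus arrays without overlap in those same 7 members (20% of all genes) and below in 0 (23.7%). They lay above forestomach arrays in 9 members (26.0%) and below in 1, Pou2f3 (29.8%). Forestomach arrays lay below corpus arrays in 7 members and above in 1, again Pou2f3 (each direction 33.2% of all genes). In tissue of this kind, fewer tuft cells and less RNA per tuft cell cannot be told apart.

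**Figure D1:**
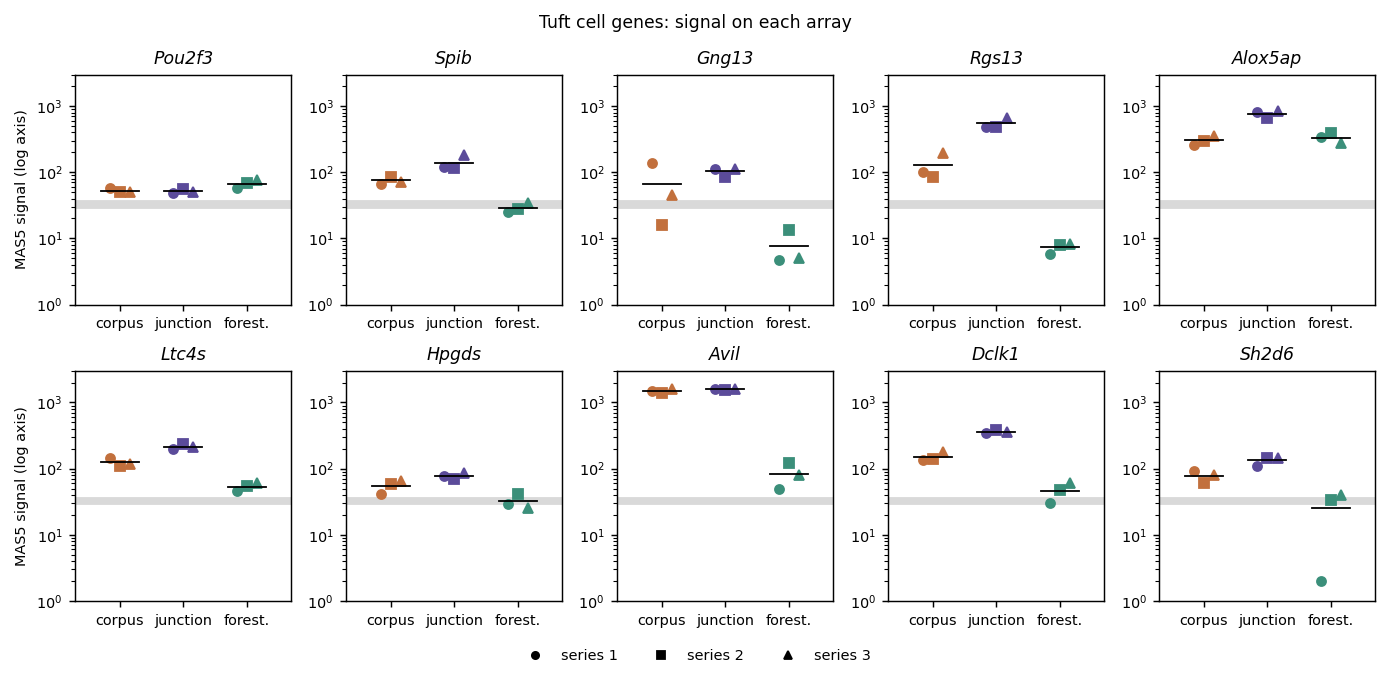
Signal of the 10 members on each array (vertical log axis, 1 panel per gene, probe set with the highest mean), by zone on the horizontal axis. Each point is 1 array, its shape gives the series, the black line is the mean of the 3 arrays and the grey band is the range of filter levels from 29.0 to 36.5. In 7 panels the 3 junction points lie above all other points, whereas Pou2f3 is highest in the forestomach and Avil is level between corpus and junction.

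The regulators of the group differed from each other. Pou2f3, the POU-domain factor that defines the lineage, had signals of 56.9, 50.8 and 50.6 in the corpus, 49.2, 55.1 and 50.4 in the junction, and 57.1, 67.8 and 76.0 in the forestomach. Corpus and junction arrays overlapped, and the forestomach arrays were highest, although array 1 of that zone barely exceeded the highest corpus array. The means were 52.8 ± 3.58 in the corpus, 51.6 ± 3.12 in the junction and 67.0 ± 9.48 in the forestomach (SD, n = 3 each, as for each mean in this text). The difference junction minus corpus was -0.03 ± 0.11 (log2, SE) and forestomach minus corpus 0.29 ± 0.11, or 1.22-fold. These differences and folds were computed on log2(signal + 9.8), which understates the change of a dim gene. Without forestomach arrays 2 and 3, the difference junction minus forestomach went from -0.32 to -0.13. The single probe set of the factor that marks tuft cells thus did not share the pattern of the other members, and the group is tuft cell genes by its list of symbols. Pou2f3 is also expressed in stratified squamous epithelium, and the summed signal of 10 squamous markers was 1480.6 to 3217.9 on corpus arrays, 62858.1 to 84037.9 on junction arrays and 89099.1 to 94821.2 on forestomach arrays. The part of squamous cells in the Pou2f3 signal was not tested.

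Spib, an ETS-family factor found in tuft cells, M cells and B cells, had signals of 67.3, 86.2 and 72.2 in the corpus. In the junction they were 119.5, 117.9 and 182.0, and in the forestomach 25.5, 27.6 and 34.0. The zones did not overlap, and junction array 3 stood above the other junction arrays. Junction exceeded corpus by 0.79 ± 0.18 (1.73-fold) and forestomach by 1.93 ± 0.18 (3.8-fold). On the forestomach arrays the signal was 33.9%, 36.7% and 45.2% of the corpus mean, and Spib was above the filter level on 7 of the 9 arrays, 1 of them a forestomach array.

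The members of G-protein signalling were low in the forestomach, under the filter level on all of its arrays. Gng13, the gamma subunit of the taste-type G protein, had the largest standard error of the 10 members. Its signals were 140.3, 15.8 and 45.0 in the corpus, 111.7, 85.7 and 113.5 in the junction, and 4.7, 13.4 and 5.0 in the forestomach. Corpus array 1 lay above every junction array and corpus array 2 close to the forestomach, so corpus and junction overlapped. The mean was 67.0 ± 65.1 in the corpus against 103.6 ± 15.6 in the junction, a difference of 0.92 ± 0.54. That difference ran from 0.31 to 1.59 when arrays were left out. Junction exceeded forestomach by 2.72 ± 0.54 (6.6-fold), where no array of the forestomach reached the filter level. The second probe set of Gng13 was dim, with signals from 7.6 to 47.3, and did not pass the filter.

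Rgs13, a regulator that switches off G-protein signals and is used as a tuft cell marker, had the largest differences of the junction from both neighbours. Its signals were 102.0, 85.0 and 195.3 in the corpus, 488.4, 487.2 and 670.1 in the junction, and 5.8, 8.0 and 8.3 in the forestomach. Each zone was separate from the others, and the array of series 3 was the highest in each zone. Junction exceeded corpus by 2.09 ± 0.27 (4.26-fold) and forestomach by 5.01 ± 0.27 (32.2-fold). Since all 3 forestomach signals were far below the filter level, the size of the latter depends on the pseudocount. It was 6.03 with a pseudocount of 1 and 3.91 with one of 30.9. Between corpus and forestomach the difference was -2.92 ± 0.27, 7.56-fold lower in the forestomach.

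The enzymes of lipid mediators form the third role. Arachidonic acid, once released from membranes, is turned by 5-lipoxygenase (Alox5) with its partner protein Alox5ap into leukotriene A4. Ltc4s joins glutathione to it and so makes the cysteinyl leukotrienes, and Hpgds makes prostaglandin D2. All 3 of these members were highest in the junction, with differences from the corpus of 1.31 for Alox5ap, 0.76 for Ltc4s and 0.45 for Hpgds on the log2 scale.

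Alox5ap had signals of 258.9, 301.9 and 353.3 in the corpus, 812.9, 653.6 and 834.4 in the junction, and 344.1, 385.9 and 274.7 in the forestomach. Corpus and forestomach overlapped, as they did for Hpgds. Junction exceeded corpus by 1.31 ± 0.17 (2.47-fold) and forestomach by 1.18 ± 0.17 (2.26-fold), whereas forestomach minus corpus was 0.13 ± 0.17. Ltc4s had signals of 146.1, 107.8 and 117.9 in the corpus, 198.6, 236.4 and 210.2 in the junction, and 46.4, 54.2 and 60.1 in the forestomach. Its zones were separate, with the forestomach lowest. Junction exceeded corpus by 0.76 ± 0.14 (1.69-fold) and forestomach by 1.83 ± 0.14 (3.55-fold). Hpgds was the dimmest of the enzymes, at 40.9, 59.6 and 64.2 in the corpus, 77.3, 70.3 and 85.9 in the junction, and 28.8, 41.8 and 25.3 in the forestomach. The junction arrays stood above all others by a narrow margin, and corpus array 1 lay just under forestomach array 2. Its difference junction minus corpus was 0.45 ± 0.18 (1.37-fold) and junction minus forestomach 1.09 ± 0.18 (2.12-fold).

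Members of the cell body and the microvilli follow. Avil (advillin) bundles actin in the tuft. Its signals were 1503.5, 1413.2 and 1578.9 in the corpus, 1618.3, 1522.7 and 1589.8 in the junction, and 49.6, 122.3 and 80.6 in the forestomach. Corpus and junction overlapped and differed by 0.07 ± 0.24, or 1.05-fold, whereas the forestomach was 16.9-fold below the corpus (-4.08 ± 0.24). On forestomach arrays 1, 2 and 3 the Avil signal was 3.31%, 8.16% and 5.38% of the corpus mean. With junction minus corpus at 0.07, Avil did not share the step from corpus to junction of Dclk1, Rgs13 or Alox5ap.

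Dclk1, a microtubule-associated kinase and a widely used tuft cell marker in the gut, was measured by 9 probe sets. The brightest had signals of 133.5, 141.7 and 181.1 in the corpus, 343.3, 383.8 and 360.2 in the junction, and 30.6, 48.1 and 60.8 in the forestomach. All zones were separate. Junction exceeded corpus by 1.21 ± 0.2 (2.32-fold) and forestomach by 2.76 ± 0.2 (6.78-fold). Of the 9 probe sets, 7 passed the filter, and in all 7 the junction arrays lay above the other 6. Their differences ran from 0.54 to 1.21 against the corpus and from 0.72 to 2.94 against the forestomach. Another bright probe set read 82.1, 81.1 and 100.7 in the corpus, 213.9, 172.4 and 256.8 in the junction, and 21.4, 9.5 and 30.1 in the forestomach, so it repeated the order of the brightest one. A dimmer one, at 32.9, 43.1 and 40.8 in the corpus and 39.2, 47.2 and 43.3 in the forestomach, did not separate these zones. Its junction signals were 64.7, 93.2 and 76.3. Probe sets of Dclk1 share the gene and the RNA, so they are not replicates, and the mean over them gave smaller differences of 0.90 against the corpus and 1.65 against the forestomach.

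**Figure D2:**
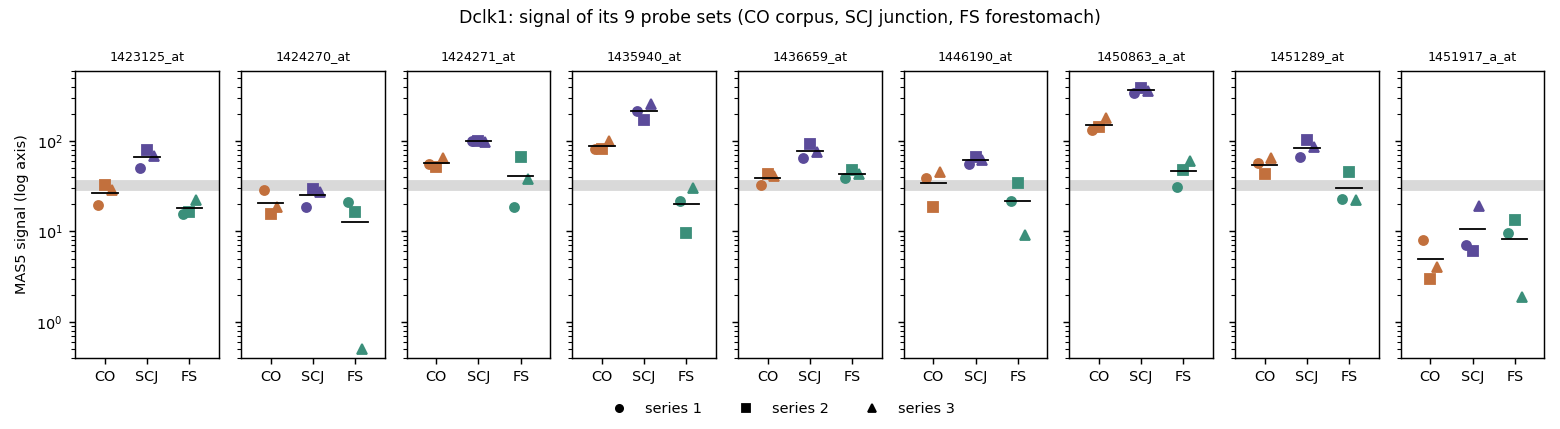
Signal of the 9 Dclk1 probe sets on each array (vertical log axis), by zone, with the series as point shape, the mean as a black line and the range of filter levels in grey. In the 7 probe sets that passed the filter the junction points lie above all others, and the remaining 2 lie within or under the grey band.

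Sh2d6, an adaptor protein with an SH2 domain found in tuft cells, had signals of 90.9, 59.8 and 79.5 in the corpus, 110.9, 145.4 and 145.4 in the junction, and 2.0, 33.9 and 39.9 in the forestomach. The forestomach arrays differed widely, with array 1 near 0 and arrays 2 and 3 at 44.2% and 52.0% of the corpus mean. Junction exceeded corpus by 0.74 ± 0.48 (1.67-fold) and forestomach by 2.28 ± 0.48 (4.84-fold), and the latter was 1.61 without forestomach array 1 and 3.60 without forestomach arrays 2 and 3. Dclk1 was also higher on forestomach arrays 2 and 3 than on array 1, at 20.1%, 31.6% and 40% of the corpus mean on forestomach arrays 1, 2 and 3. Rgs13 was at 4.55%, 6.28% and 6.51%, but its forestomach signals lay below the filter level and give no order of these arrays. The part of the glandular transcripts on forestomach arrays 2 and 3 in these values was not tested.

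**Figure D3:**
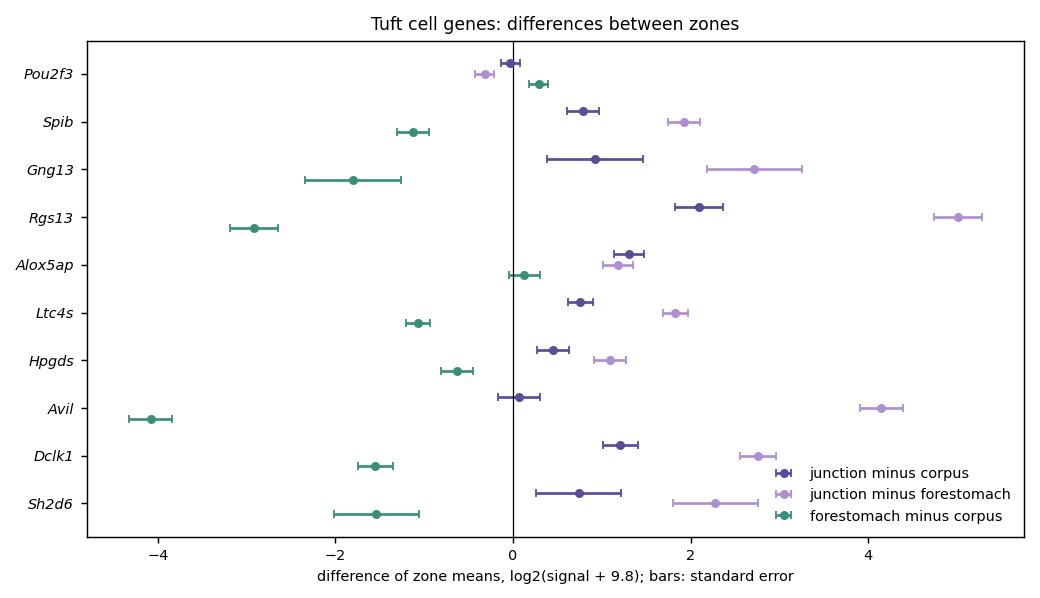
Difference of zone means for each member on log2(signal + 9.8), junction minus corpus, junction minus forestomach and forestomach minus corpus, with bars for the standard error. Rgs13 lies farthest right for both differences of the junction, and Pou2f3 is the only member left of 0 against the forestomach.

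The median difference over the 10 members was 0.78 for junction minus corpus, 2.10 for junction minus forestomach and -1.33 for forestomach minus corpus. Over all genes tested these medians were -0.05, -0.04 and -0.01. Over the 9 arrays the members other than Pou2f3 ran together, with Pearson's r from 0.422 to 0.985 over 36 pairs and a median of 0.867. Pou2f3 ran against them, with r from -0.799 to -0.428 over 9 pairs. Against the mean profile of the other members, r was 0.985 for Dclk1, 0.975 for Ltc4s, 0.973 for Rgs13, 0.67 for Alox5ap and -0.716 for Pou2f3. These correlations are descriptions over 9 arrays that fall into 3 zones, and the points share those zones.

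Other genes of tuft cells were taken from 4 lists with 47 genes, none of them a member. These lists too were chosen with earlier results of these data known, so their counts are not independent of those results. Of the 47 genes, 41 had a probe set with a single symbol and 32 passed the filter and were tested with limma over all 13637 genes. From corpus to junction 11 of the 32 rose and 1 fell, against 13.2% higher and 11.8% lower over all genes. From forestomach to junction 18 of 32 were higher (21.5% of all genes) and 0 were lower (23.1%). At an unadjusted p under 0.05, 0 of them were lower in that comparison too, and limma with trend and robust options also gave 0. In the forestomach against the corpus 4 were higher (30.0%) and 13 lower (29.9%). Lta4h, Plcg2 and Il4ra were among these 4 and also among the 11 that rose from corpus to junction. The median differences were 0.28 for junction minus corpus, 0.81 for junction minus forestomach and -0.39 for forestomach minus corpus. The count of 11 was 7 without junction array 3, 4 without series 2, and 6 without series 3. Leaving out forestomach arrays 2 and 3 gave 8 in its place. The count of 1 gene that fell was 2 without forestomach array 3 and 0 without series 2 or series 3. The count of 4 was 2 without corpus array 2, junction array 2, forestomach array 1, forestomach array 2 or any one series.

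Of the 11 genes that rose from corpus to junction, 8 belonged to leucocyte-type signalling. The genes of this list code for proteins that tuft cells share with white blood cells, among them adaptors, phosphatases and kinases. Of 13 tested, 8 were higher in the junction than in the corpus and 9 were higher than in the forestomach, with 0 lower in either (0 also at an unadjusted p under 0.05 in limma). The median difference from the corpus was 0.63 for this list and 0.67 for 10 macrophage genes, of which 7 were higher in the junction. The part of white blood cells in this list was not tested. Lrmp, a membrane protein of the endoplasmic reticulum also known as Irag2, had signals of 115.8, 110.1 and 143.0 in the corpus, 243.1, 258.4 and 279.3 in the junction, and 58.7, 53.5 and 50.0 in the forestomach. All zones were separate, and junction exceeded corpus by 1.03 ± 0.12 (adjusted p = 0.000383) and forestomach by 2.08 ± 0.12 (adjusted p = 3.69e-06). Cd300lf, a surface receptor of myeloid and tuft cells, had signals of 62.3, 61.9 and 61.5 in the corpus, 145.1, 106.0 and 152.0 in the junction, and 40.7, 34.0 and 33.3 in the forestomach. It exceeded the corpus by 0.99 ± 0.14 (adjusted p = 0.00116) and the forestomach by 1.64 ± 0.14 (adjusted p = 3.02e-05). Lrmp and Cd300lf were the 2 genes of the 32 that lay above both neighbours in the intersection-union test (adjusted p = 0.0196 and 0.0383), which 0.198% of all genes passed. With the series as a block these adjusted p were 0.081 and 0.102, and the count was 0. Over the alternatives they ran from 0.0048 to 0.515 for Lrmp and from 0.0142 to 0.753 for Cd300lf. The count was also 0 without corpus array 1, corpus array 2, junction array 1, junction array 3 or any one series, and without forestomach arrays 2 and 3 together. It was 1 without corpus array 3, junction array 2 or forestomach array 1.

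The other rises of this list were smaller or less stable. Fyb, an adaptor of immune receptors, exceeded the corpus by 0.95 ± 0.16 (adjusted p = 0.00334), and Rac2, a small GTPase of blood cells, by 0.88 ± 0.14 (adjusted p = 0.00306). Over the alternatives their adjusted p ran from 0.000508 to 0.0526 and from 0.00125 to 0.0612, both highest without series 2. The kinase Matk exceeded the corpus by 0.84 ± 0.25 (adjusted p = 0.0395). Blocking by series moved its adjusted p to 0.0527, and it ran from 0.00121 to 0.194 over the alternatives. Against the forestomach, the phosphatase Ptpn18 was higher by 1.69 ± 0.12 and the calcium pump Atp2a3 by 1.41 ± 0.11 (adjusted p = 1.39e-05 and 2.73e-05). Neither differed between junction and corpus past the threshold, at 0.01 ± 0.12 and -0.01 ± 0.11.

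In the synthesis of lipid mediators, 2 of 7 tested genes were higher and 1 lower in the junction than in the corpus, and 3 were higher than in the forestomach. Alox5, the enzyme that works with the member Alox5ap, had signals of 47.7, 83.6 and 132.8 in the corpus, 199.6, 221.3 and 285.4 in the junction, and 73.8, 42.9 and 59.6 in the forestomach. The junction arrays lay above all others. Alox5 exceeded the corpus by 1.41 ± 0.32 (adjusted p = 0.0131) and the forestomach by 1.85 ± 0.32 (adjusted p = 0.00164). The adjusted p against the corpus ran from 0.00331 to 0.0987 over the alternatives. It was 0.05 without junction array 3 and highest without series 2. Lta4h, which makes leukotriene B4, was higher by 0.32 ± 0.08 (adjusted p = 0.0245), a call that several alternatives ended, with an adjusted p from 0.00574 to 0.525. Lta4h was also higher in the forestomach than in the corpus, by 0.24 ± 0.08 (adjusted p = 0.0366), which several alternatives ended too. Ptgds, the other prostaglandin D2 synthase, fell from corpus to junction by 0.73 on the log2 scale (adjusted p = 0.00994), opposite to the member Hpgds. Its adjusted p ran from 0.00657 to 0.133 over the alternatives, and was 0.096 without series 2 and 0.133 without series 3. Pla2g4a, the phospholipase that frees arachidonic acid, was higher in the junction than in the forestomach by 0.81 ± 0.1 (adjusted p = 0.000309) and gave -0.14 ± 0.1 against the corpus. Ptgs1 was not analysed here.

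The taste-type genes gave no call between junction and corpus. Of 5 tested with limma, 0 were called in either direction there, and at an unadjusted p under 0.05 0 were higher and 1 was lower. Against the forestomach 3 were higher in the junction. The cation channel Trpm5 had signals of 88.7, 76.7 and 92.2 in the corpus, 92.1, 104.5 and 136.6 in the junction, and 21.8, 18.1 and 32.3 in the forestomach. It exceeded the forestomach by 1.84 ± 0.18 (adjusted p = 8e-05), and against the corpus it gave 0.32 ± 0.18 (adjusted p = 0.228), with 1 junction array within the corpus range. Over the alternatives that adjusted p ran from 0.00739, with the mean of its probe sets, to 0.551. The calcium release channel Itpr3 was 1.33 ± 0.1 above the forestomach and the taste receptor subunit Tas1r3 1.22 ± 0.21 above it (adjusted p = 1.73e-05 and 0.00166). The forestomach signals of Tas1r3, at 15.3, 6.6 and 8.3, lay below the filter level, and its difference was 1.80 with a pseudocount of 1. The adjusted p of Tas1r3 ran from 0.00103 to 0.0519 over the alternatives, highest without forestomach arrays 2 and 3. Plcb2, the phospholipase of the cascade, gave -0.82 ± 0.28 for junction minus corpus and did not pass the threshold (adjusted p = 0.0662). Over the alternatives that adjusted p ran from 0.0232, without forestomach array 3, to 0.366. Sucnr1, the succinate receptor of intestinal tuft cells, lay between 0.7 and 23.2 on all arrays, below the filter level. Gnat3 was not analysed here.

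Of 13 measured genes of factors, cytokines and surface, 6 did not pass the filter. Il25, the cytokine that tuft cells send to innate lymphoid cells, stayed between 0.7 and 5.8 on all arrays. Gfi1b, a factor of mature tuft cells, read 31.8, 31.9 and 7.0 in the corpus, 49.9, 26.2 and 11.0 in the junction, and 3.6, 3.7 and 6.0 in the forestomach, which failed the filter. Chat, which makes acetylcholine, lay between 5.6 and 33.8 with no order of zones. So 3 defining tuft cell genes could not be followed on these arrays. Of 7 genes tested, 1 was higher in the junction than in the corpus, the interleukin receptor Il4ra at 0.41 ± 0.08 (adjusted p = 0.00811). Over the alternatives its adjusted p ran from 0.00422 to 0.0807, and it was above 0.05 without any one series. Il4ra was also higher in the forestomach than in the corpus, by 0.48 ± 0.08 (adjusted p = 0.00112), so its rise was not particular to the junction. Against the forestomach 3 of 7 were higher, led by villin (Vil1), an actin bundler of microvilli, at 3.54 ± 0.41 (adjusted p = 0.000198), or 4.51 without forestomach arrays 2 and 3. Il17rb, the receptor part for interleukin 25, gave 0.54 ± 0.3 against the corpus (adjusted p = 0.225).

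**Figure D4:**
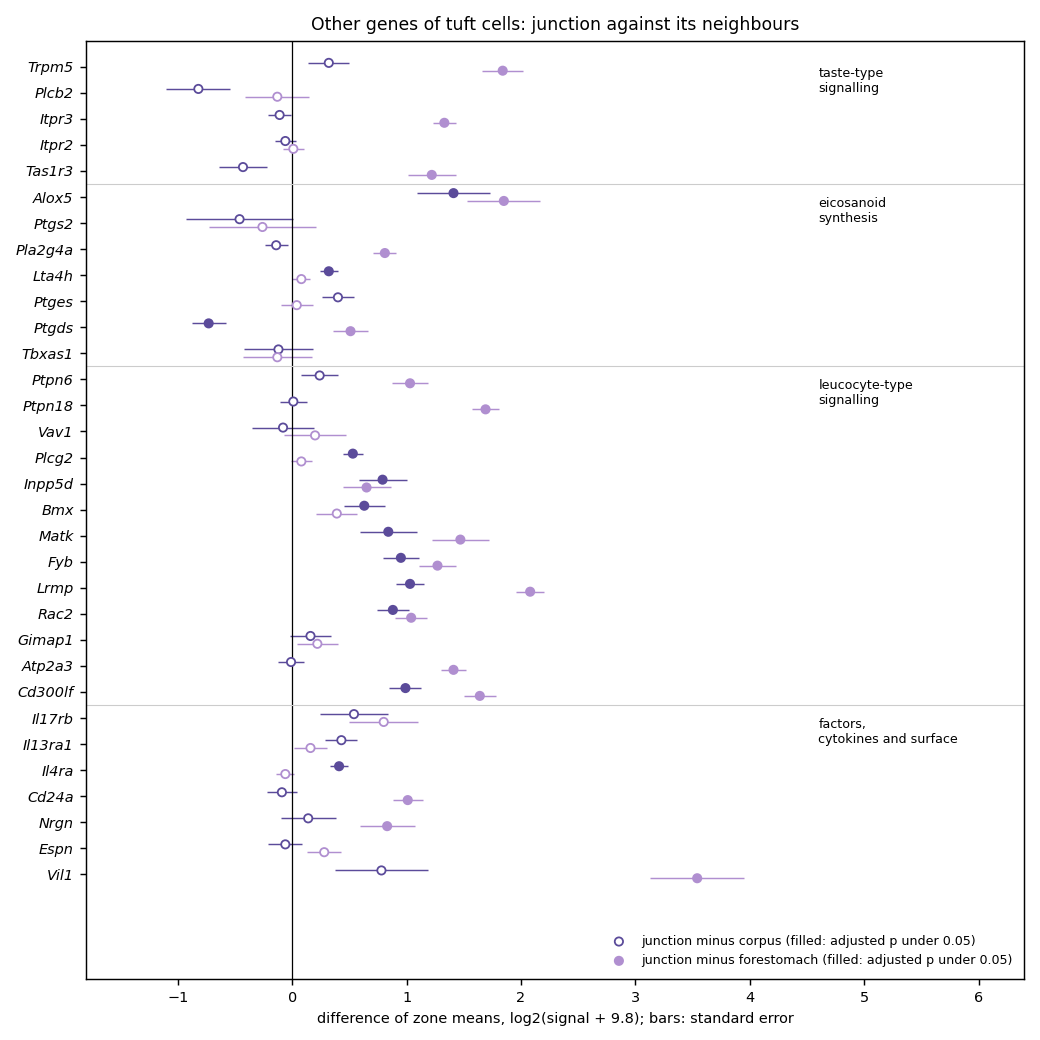
Differences of zone means for the 32 other tuft cell genes tested, by list, on log2(signal + 9.8), with bars for the standard error and filled points where the adjusted p was under 0.05. Filled dark points, junction above corpus, gather in the leucocyte-type list, and the taste-type list has none.

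Receptors and breakdown enzymes of the leukotrienes and prostaglandin D2 were also followed. Of 8 tested, 1 was higher in the junction than in the corpus (13.2% of all genes were) and 0 lower (0 also at an unadjusted p under 0.05), and 1 was higher and 1 lower than in the forestomach. The leukotriene B4 receptor Ltb4r1 had signals of 26.6, 3.8 and 3.5 in the corpus, 65.0, 65.6 and 109.6 in the junction, and 142.2, 161.1 and 155.9 in the forestomach. It thus rose towards the forestomach, by 3.12 ± 0.37 from the corpus (adjusted p = 0.000109) and by 2.23 ± 0.37 from corpus to junction (adjusted p = 0.00327). The adjusted p of that second step ran from 8.79e-05 to 0.0638 over the alternatives, and was 0.0568 without series 2 and 0.0638 without series 3. Pparg, a nuclear receptor for prostaglandin D2 products, was 1.09 ± 0.14 higher in the junction than in the forestomach (adjusted p = 0.00039), and the dipeptidase Dpep1, which cleaves leukotriene D4, fell by 0.77 in that comparison (adjusted p = 0.00612).

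Several members are expressed in other cells of the stomach wall, so markers of those cells were measured beside them. Alox5ap, Ltc4s, Hpgds and Rgs13 are also found in mast cells. The summed signal of 12 mast cell genes was 1806.6 to 2364.4 on corpus arrays, 2398.9 to 2654.6 on junction arrays and 1281.8 to 1497.7 on forestomach arrays. The sum thus had the same order of zones as Ltc4s and Rgs13, which not every gene of the list shared. Of the 12, 3 were higher in the junction than in the corpus and 2 were lower (13.2% and 11.8% of all genes). Carboxypeptidase Cpa3 rose by 1.03 ± 0.12 (adjusted p = 0.000567) and the mucosal protease Mcpt1 by 1.18 ± 0.34 (adjusted p = 0.0356), and the immunoglobulin E receptor chain Fcer1a by 1.0 ± 0.29 (adjusted p = 0.0381). The genes of the list that fell, named after their values were seen, were the receptor Kit and the histamine enzyme Hdc, at -0.89 ± 0.13 and -0.83 ± 0.24 (adjusted p = 0.00152 and 0.0373). Hdc had means of 291.6, 159.9 and 9.53 in corpus, junction and forestomach. Chga of the glandular list had the same order, at 2041.4, 1096.6 and 105.5. The part of cells other than mast cells in the Hdc and Kit signals was not tested. Over the alternatives the adjusted p of Mcpt1 ran from 0.00622 to 0.173, that of Fcer1a from 0.00128 to 0.214 and that of Hdc from 0.00502 to 0.173. All 3 were above 0.05 without corpus array 1, corpus array 2, junction array 2, junction array 3, series 1 or series 2. Against the forestomach 6 of 12 were higher in the junction and 2 lower (21.5% and 23.1% of all genes), led by Mcpt2 at 5.18 ± 0.28. Mcpt2 had means of 493.0, 681.6 and 10.4 in corpus, junction and forestomach. In the forestomach against the corpus 3 of 12 were higher and 6 lower (30.0% and 29.9% of all genes). The 3 higher were Cpa3 by 0.92, Cma1 by 0.63 and Mcpt4 by 3.05. Over the alternatives the adjusted p of Cma1 in limma ran from 0.0025 to 0.132. No mast cell gene was at 0 on all arrays. The part of mast cells in the 4 members was not tested.

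Macrophages also carry Alox5ap and Alox5. The summed signal of 10 macrophage genes was 2685.8 to 3234.2 on corpus arrays, 4592.1 to 4744.1 on junction arrays and 3927.1 to 5471.8 on forestomach arrays. Of the 10, 7 were higher in the junction than in the corpus and 0 lower (13.2% and 11.8% of all genes). Alox5ap was also higher in the junction than in the forestomach. Of the 10 macrophage genes, 1 was higher and 1 lower in that comparison (21.5% and 23.1% of all genes). Genes of eosinophils and neutrophils summed to 99.9 to 123.4 in the corpus, 1426.8 to 2736.3 in the junction and 1057.6 to 1447.3 in the forestomach over 5 tested genes. In junction and forestomach most of that sum was S100a9, which squamous cells also make, with a mean signal of 1507.2 and 1082.3 against 15.7 in the corpus. The eosinophil genes Ccr3, Prg2, Epx and Il5ra were all below the filter level. Siglecf, a lectin of eosinophils that intestinal tuft cells also carry, read 35.9, 47.8 and 57.6 in the corpus, 132.1, 133.1 and 216.0 in the junction, and 16.5, 25.3 and 10.5 in the forestomach. Its zones were separate, and it rose by 1.56 ± 0.25 from corpus to junction (adjusted p = 0.00296). The part of macrophages and granulocytes in the levels of Alox5ap and Alox5 was not tested.

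B cells and M cells share Spib with tuft cells, and B cells share Rgs13. Of the B cell genes, Ms4a1, Cd79b, Blk, Fcrla, Cr2 and Pou2af1 were below the filter level and 3 were tested. Their summed signal was 107.8 to 143.4 in the corpus, 82.0 to 93.1 in the junction and 65.4 to 69.8 in the forestomach. Cd79a was above the filter level on the 3 corpus arrays only, and Pax5 and Cd22 on 4 and 5 arrays. The filter thus helped to set a high corpus sum, and the order of this sum is not read against Spib. Of these 3 genes, 0 were called between junction and corpus by limma, and at an unadjusted p under 0.05 2 were lower and 0 higher. The M cell genes Gp2 and Sox8 were below the filter level. The 4 others summed to 799.8 to 824.9 in the corpus, 1138.7 to 1197.8 in the junction and 1145.3 to 1408.7 in the forestomach. Of these 4, 2 were higher in the junction than in the corpus (13.2% of all genes). Of T cell and innate lymphoid genes, Cd3e, Cd3d, Cd3g and Cd2 were below the filter level. Of the 4 tested, 3 were higher in the junction than in the corpus (13.2% of all genes), namely Thy1, Il7r and Gata3. The summed signal of the 4 was 185.8 to 243.7, 379.1 to 430.5 and 550.2 to 606.1 in corpus, junction and forestomach. Gata3 had means of 1.77, 59.8 and 161.5 in these zones and Thy1 78.6, 182.5 and 298.3. Both thus had the order of the summed squamous genes and of the summed fibroblast and smooth muscle genes. The part of squamous cells and connective tissue in these signals was not tested. The part of B cells and M cells in the Spib and Rgs13 signals was not tested.

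Dclk1 and Avil are also found in neurons, and Dclk1 in connective tissue. The summed signal of 9 neuronal genes was 725.2 to 803.5 in the corpus, 513.7 to 653.7 in the junction and 1101.3 to 1325.0 in the forestomach. The neuronal sum was lowest in the junction, and Dclk1 was highest there. Of the 9, 7 were lower in the junction than in the forestomach and 0 were higher (0 also at an unadjusted p under 0.05 in limma). Over all genes 23.1% were lower and 21.5% higher in that comparison. Genes of fibroblasts and smooth muscle summed to 28171.2 to 37740.9 in the corpus, 36435.5 to 40376.2 in the junction and 64343.9 to 72869.1 in the forestomach. Of these 10, 8 were lower in the junction than in the forestomach (23.1% of all genes). The 10 glandular genes summed to 91721.9 to 133315.3 in the corpus, 94803.4 to 109466.3 in the junction and 1016.8 to 20429.8 in the forestomach. Avil had the same order, with corpus and junction level and the forestomach low. The part of neurons, connective tissue and glandular cells in the Dclk1 and Avil signals was not tested.

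**Figure D5:**
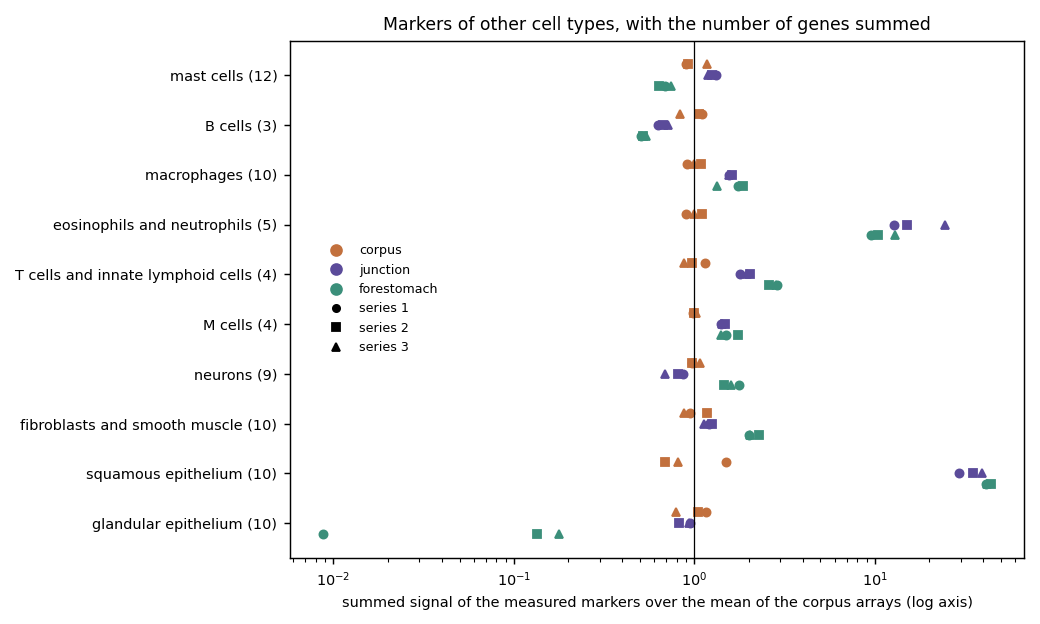
Summed signal of the markers of 10 other cell types on each array, over the mean of the corpus arrays (log axis), with the number of genes summed in brackets. The mast cell sum is highest in the junction and lowest in the forestomach. The neuronal sum is lowest in the junction, and the glandular sum on forestomach arrays 2 and 3 lies above that on array 1.

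Outside the lists, the genes most like the mean profile of the members over the 9 arrays were Aqp5 (Pearson's r 0.988), Cela1 (0.986), Dmbt1 (0.984), Muc4 (0.981) and Pigr (0.978). Clca1 (0.975), Inhbb (0.972), Pmepa1 (0.972), Gkn3 (0.971) and Cym (0.97) followed. Aqp5 is a water channel, Muc4 a mucin and Pigr a transporter of antibodies across epithelia. Aqp5 had signals of 111.4, 92.2 and 120.0 in the corpus, 280.2, 346.1 and 308.4 in the junction, and 3.7, 17.7 and 10.4 in the forestomach, the same order as Dclk1. Muc4 read 89.1, 80.1 and 111.5 in the corpus, 443.8, 606.0 and 496.3 in the junction, and 12.8, 26.3 and 18.4 in the forestomach. The order junction, corpus, forestomach was thus shared by genes outside the tuft cell lists. Singly, Rgs13 was most like Cd177 (0.993), Lrmp (0.992) and Pigr (0.992), and Dclk1 was most like Cela1 (0.99), Aqp5 (0.986) and Lpcat2 (0.984). Alox5ap was most like the actin-capping protein Capg (0.985), Ctsz (0.971) and Ces1g (0.963). Avil was most like Ern2, Pla2g10 and AA467197 (0.998 each), and Pou2f3 was most like Ankra2 (0.973), Camsap3 (0.969) and Ints13 (0.94). Spib was most like Rassf6 (0.987), Ltc4s like Aqp5 (0.985), Hpgds like Bpgm (0.97), Gng13 like Mcoln2 (0.978) and Sh2d6 like Trem3 (0.98). These likenesses rest on 9 arrays in 3 zones and carry no test.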

How the data were processed

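RNA of each of 9 tissue pools was run on 1 Affymetrix mouse array, per the labels. The authors deposited linear intensity signals, computed with MAS5 according to the submitters' processing notes, with no version or settings given. With 2% trimmed from each end, the array means averaged 200.0 over the 9 arrays. MAS5 uses mismatch probes, so dim signals are noisy.

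Of the probe sets, 34958 had a single symbol in the 2016 platform annotation, 932 had several and 9211 had none; Entrez IDs served to update symbols. The filter asked for 3 or more arrays above the array's 40th percentile. Genes with several probe sets past it were read from the one with the highest mean log2 value, leaving 13637 genes. From the deposited intensity, log2(signal + 9.8) was fitted with limma 3.58.1 (R 4.3.3), giving each zone a mean over all 9 arrays (6 residual and 2.56 prior degrees of freedom). Tests were two-sided, with Benjamini-Hochberg adjustment over all genes and a threshold of 0.05. This procedure was tested on simulated data. Plots used Python 3.11.15 and matplotlib 3.10.9.

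The members, the lists and the tests were chosen with earlier results of these data known. Genes named are all members, defining tuft cell genes whatever their values, up to 4 called genes per list, direction and comparison with the largest difference, up to 3 per cell type list, and the genes most like the members. Per the labels, same-numbered arrays hold tissue of the same mice, which pairs them, and a fit blocked by series was tried. Residuals of same-series arrays correlated at -0.0287 to 0.123 (mean 0.0329 over 9 pairs). Also tried were pseudocounts of 1 and 30.9, dropping or tightening the filter, quantile normalization or median centring, averaging probe sets or testing each, limma's trend with robust fitting, fits on the 6 arrays of a comparison, a 2-fold minimum, and leaving out arrays or series.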

Additional observations from a re-analysis of the deposited data

How the results depend on the processing

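No difference past the threshold in the lists of tuft cell and mediator genes changed its sign under the alternatives run. In 3 differences that did not pass it, the sign turned and the threshold was passed: with the mean of the probe sets Il13ra1 in forestomach minus corpus went from 0.27 to -0.47 and Ptges in junction minus forestomach from 0.04 to -0.30, and without forestomach arrays 2 and 3 Ptgs2 in forestomach minus corpus went from -0.20 to 0.97. Of the members, Pou2f3 in junction minus corpus, at -0.03, turned to 0.08 with quantile normalization and reached 0.05 with arrays left out. Of the single differences of members, 692 stayed within the spread over series and 22 moved beyond it, mostly against the forestomach with another pseudocount. The median over members for junction minus forestomach, 2.10, was 2.60 with a pseudocount of 1 and 1.58 with the larger one. It was 2.51 without forestomach arrays 2 and 3. With the stricter filter it was 2.50, since Pou2f3 and Hpgds did not pass that filter and left the median. Of the other tuft cell genes, 11 were higher in the junction than in the corpus, against 2 with a 2-fold minimum. Leaving out junction array 3 gave 7, series 2 gave 4 and series 3 gave 6, within a range of 4 to 12. The count of 1 lower gene, Ptgds, became 2 with the larger pseudocount, with trend and robust options and with only the arrays compared. The count was 0 with the 2-fold minimum. It was also 0 with the stricter filter, which Ptgds did not pass, so that this gene was not tested there. With arrays or series left out the count ran from 0 to 2. The 0 genes lower than in the forestomach became 1 with the mean of the probe sets and without forestomach arrays 2 and 3. The 4 genes higher in the forestomach than in the corpus became 2 with each probe set and with only the arrays compared, and 0 with the 2-fold minimum (2 to 4 with arrays or series left out). The 2 genes above both neighbours became 4 with the larger pseudocount, the stricter filter and the mean of the probe sets, and 1 with a pseudocount of 1, no filter, each probe set and the 2-fold minimum. They became 0 with only the arrays compared, without forestomach arrays 2 and 3, and with the series as a block, and were 0 to 2 with arrays or series left out. The replicate block moved no other count by over 1.5 times: 11 higher and 1 lower against the corpus and 18 higher against the forestomach remained as counts. Apart from genes that did not pass the stricter filter, the cause of these changes was not tested. Signals under the filter level limit the size of a difference, as for Rgs13, Gng13, Vil1 and Tas1r3 in the forestomach and Ltb4r1 in the corpus.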
